A study of Mus musculus with 8 samples.

Results

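Serpins are a superfamily of proteins that share one fold. Most of them inhibit serine or cysteine proteases by a suicide mechanism, in which the protease cuts a loop of the serpin and is then trapped and distorted. The family is divided into clades by sequence. Clade A and several smaller clades are secreted, many of them by liver into plasma, where they hold back elastase, thrombin and plasmin. Members of clade B lack a classical signal peptide and act mainly inside cells, where they guard against granzymes, cathepsins and other proteases. A few members carry hormones or assist collagen folding instead of inhibiting a protease. In mouse, the genes of clades A and B lie side by side in large clusters of duplicated copies. Fat tissue releases some serpins itself, among them pigment epithelium-derived factor (Serpinf1) and vaspin (Serpina12).

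The genes described here are the protein-coding genes of the mouse mm9 annotation whose symbol starts with Serpin, 60 of 22367 protein-coding genes on 21 chromosomes. LaminB1-DamID was used to ask where these genes lay relative to the nuclear envelope (NE) in 3T3-L1 cells, an established mouse fibroblast line that forms fat cells in culture. In DamID the bacterial methylase Dam is fused to a protein of interest and methylates the sequence GATC in nearby DNA, so that a LaminB1-Dam fusion marks DNA at the NE and free Dam gives the background. Preadipocytes were taken before induction. Adipocytes were taken at day 9 after induction with insulin, dexamethasone, IBMX and rosiglitazone, and were a control labelled as carrying a non-target shRNA (the study's text speaks of an empty shRNA vector), cells with an shRNA against Tmem120a, which encodes a transmembrane protein of the NE, or cells with shRNAs against Tmem120a and its paralogue Tmem120b. All were cultures of the same line and were transduced with lentivirus encoding Dam or LaminB1-Dam. The untreated preadipocytes had neither the inducers nor an shRNA. By the study's results section, they were also collected a shorter time after transduction than the adipocytes. Differentiation, the control vector and the time of labelling therefore cannot be told apart between preadipocytes and control adipocytes.

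Each of the 4 conditions had 1 LaminB1-Dam and 1 Dam library, 8 libraries in all, and gave 1 list of lamina-associated domains (LADs). No condition was replicated, so there is no replicate error, no test was possible, and each difference below is a difference between 2 lists. The lists hold positions with no score, so neither the depth of sequencing nor how strongly a LAD was methylated is known. They held 3914 LADs in preadipocytes, 2542 in adipocytes, 5723 after Tmem120a knockdown and 6971 after the double knockdown, with median lengths of 83.2, 103, 59.1 and 60.7 kb. RNA was not measured in these libraries, so the cell type labels were not checked against marker genes. A gene was called in a LAD when any base of its body overlapped one. Released regions are stretches in LADs of preadipocytes and not of adipocytes, and recruited regions are the converse, both as deposited.

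The members were unevenly placed in the genome. Clusters, in which neighbouring members were less than 500 kb apart, held 52 of the 60 genes. The largest in number was the clade A cluster of chromosome 12, with 22 genes from Serpina10 to Serpina3n over 798 kb. On chromosome 13, 15 clade B genes from Serpinb1a to Serpinb6a spanned 1161 kb, and on chromosome 1, 11 clade B genes from Serpinb5 to Serpinb8 spanned 748 kb. Serpini2 and Serpini1 formed a pair on chromosome 3, and Serpinf1 and Serpinf2 a pair on chromosome 11. The other 8 genes stood alone. Genes of a cluster can share a LAD, so they are not independent observations.

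LAD borders were cut at GATC sites, and the sequences around the borders of 5 of the 10 differential regions that meet Serpin genes are shown, because these are points at which the family's domains opened or closed. All are mm9, plus strand, 5′ to 3′, with every GATC in capitals. The released region over Serpina6 starts at the first sequence (chr12:104871810-104871853) and ends, in an intron of Serpina1f, at the second (chr12:104930837-104930880).
Serpina6 region, left: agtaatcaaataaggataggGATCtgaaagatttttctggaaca
Serpina6 region, right: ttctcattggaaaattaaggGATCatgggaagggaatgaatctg
The region over Serpina5 starts at chr12:105321004-105321047 and ends inside an intron of Serpina3a at chr12:105356078-105356121.
Serpina5 region, left: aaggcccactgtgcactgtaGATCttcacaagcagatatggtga
Serpina5 region, right: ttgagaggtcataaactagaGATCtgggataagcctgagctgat
The region over Serpina3c starts in an exon of Serpina3b at chr12:105376977-105377020, where another GATC lies close by, and ends at chr12:105459931-105459974.
Serpina3b to Serpina3f region, left: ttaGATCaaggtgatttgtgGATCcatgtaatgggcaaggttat
Serpina3b to Serpina3f region, right: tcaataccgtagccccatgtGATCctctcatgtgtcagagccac
The region inside Serpine2 starts at chr1:79804234-79804277 and ends at chr1:79854359-79854402, both in introns.
Serpine2 region, left: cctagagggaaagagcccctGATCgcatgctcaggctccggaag
Serpine2 region, right: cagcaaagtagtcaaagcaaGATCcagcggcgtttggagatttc
The recruited region over Serpinb2 starts at chr1:109376107-109376150 and ends at chr1:109458423-109458466.
Serpinb2 region, left: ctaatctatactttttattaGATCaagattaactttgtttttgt
Serpinb2 region, right: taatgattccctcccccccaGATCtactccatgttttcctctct
A border at a GATC site can be placed no more finely than these sites are spaced, and its error was not measured. The median distance between sites was 238 bp in the chromosome 12 cluster, 201 bp in the chromosome 13 cluster and 228 bp in the chromosome 1 cluster, against 261 bp in the genome.

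Serpin genes met LADs more often than protein-coding genes at large in each of the 4 lists. In preadipocytes 35 of 60 members (58.3%) were in a LAD, beside 26.2% of all protein-coding genes. In adipocytes it was 29 (48.3%) beside 23.3%. After Tmem120a knockdown it was 33 (55.0%) beside 27.5%, and after the double knockdown 37 (61.7%) beside 29.5%. Leaving out LADs under 100 kb gave 22 members in the double knockdown list, as many as in adipocytes (22) and fewer than in preadipocytes (28). No share of all genes is given under this limit. The start site alone lay in a LAD for 30 members in preadipocytes (23.3% of all genes), 25 in adipocytes (21.2% of all genes), 32 after Tmem120a knockdown (22.6% of all genes) and 33 after the double knockdown (23.8% of all genes). These members met few separate LADs, from 11 after Tmem120a knockdown to 20 after the double knockdown, so the counts reflect a small number of domains.

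Most members in LADs were covered whole, as were most genes in LADs. Of the 35 members in preadipocytes 28 lay wholly in LADs (80.0%), beside 76.5% of all genes in LADs. The whole-body counts were 23 of 29 in adipocytes (79.3% beside 83.1%), 31 of 33 after Tmem120a knockdown (93.9% beside 69.0%) and 27 of 37 after the double knockdown (73.0% beside 65.9%). The longest LAD met by a member had a median length of 506 kb in preadipocytes, 306 kb in adipocytes, 459 kb after Tmem120a knockdown and 203 kb after the double knockdown. For all genes in LADs, these medians were 599, 903, 339 and 259 kb. By these medians Serpin genes thus sat in shorter LADs than genes at large in preadipocytes, adipocytes and the double knockdown list. After Tmem120a knockdown they sat in longer ones.

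**Figure D1:**
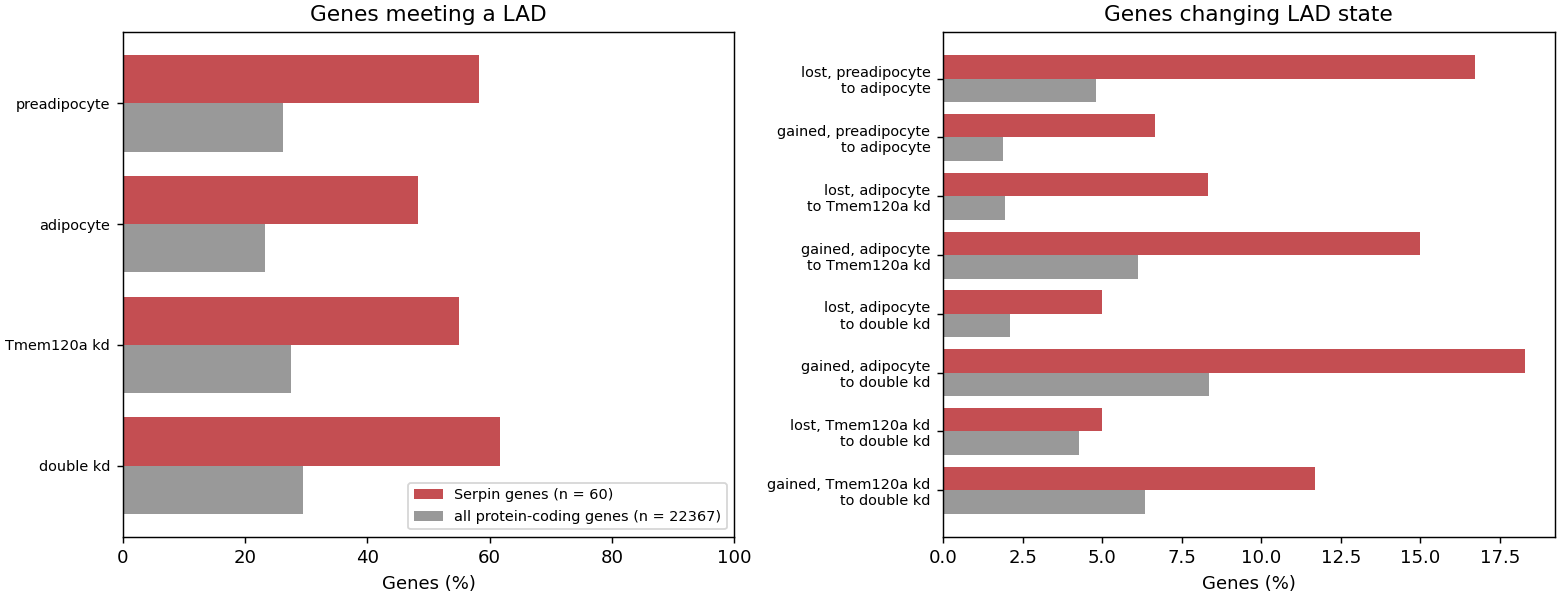
Left, percentage of genes whose body meets a LAD in each of the 4 lists. Right, percentage of genes in a LAD in the first list and not the second (lost) or the reverse (gained); red bars are the 60 Serpin genes and grey bars all 22367 protein-coding genes, kd is knockdown, and each list comes from 1 pair of libraries, so no error bar can be drawn. The red bar is longer than the grey bar in every row, and the longest on the right is the gain from adipocytes to the double knockdown, 11 of 60 members against 8.36%.

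The secreted and intracellular clades differed in where their members lay. Among the 31 genes of the secreted clades (A, C, D, E, F and G), 19 were in a LAD in preadipocytes, 10 in adipocytes, 18 after Tmem120a knockdown and 19 after the double knockdown. Among the 26 clade B genes the counts were 14, 17, 13 and 16. The shares of all protein-coding genes in these lists were 26.2%, 23.3%, 27.5% and 29.5%, also lowest in adipocytes. Fewer members of the secreted group were thus in a LAD in adipocytes than in the other 3 lists, whereas clade B had its highest count there. Each of these groups consists largely of neighbours in 1 or 2 clusters. Of the 5 serpins known not to act as protease inhibitors (Serpina6, Serpina7, Serpinb5, Serpinf1 and Serpinh1), 3 were in a LAD in preadipocytes, 1 in adipocytes, 2 after Tmem120a knockdown and 1 after the double knockdown.

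LAD state was the same in all 4 lists for 37 members, of which 19 were always in a LAD (31.7%, beside 19.3% of all genes) and 18 never (30.0%, beside 63.7%). It differed between lists for the other 23 (38.3%), beside 3790 of all protein-coding genes (16.9%). The commonest pattern among these 23 was absence from adipocyte LADs alone. It was shown by 8 members, all on chromosome 12 (Serpina6, Serpina5, Serpina3a, Serpina3b, Serpina3c, Serpina3f, Serpina3i and Serpina3k), and by 1.44% of all genes.

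**Figure D2:**
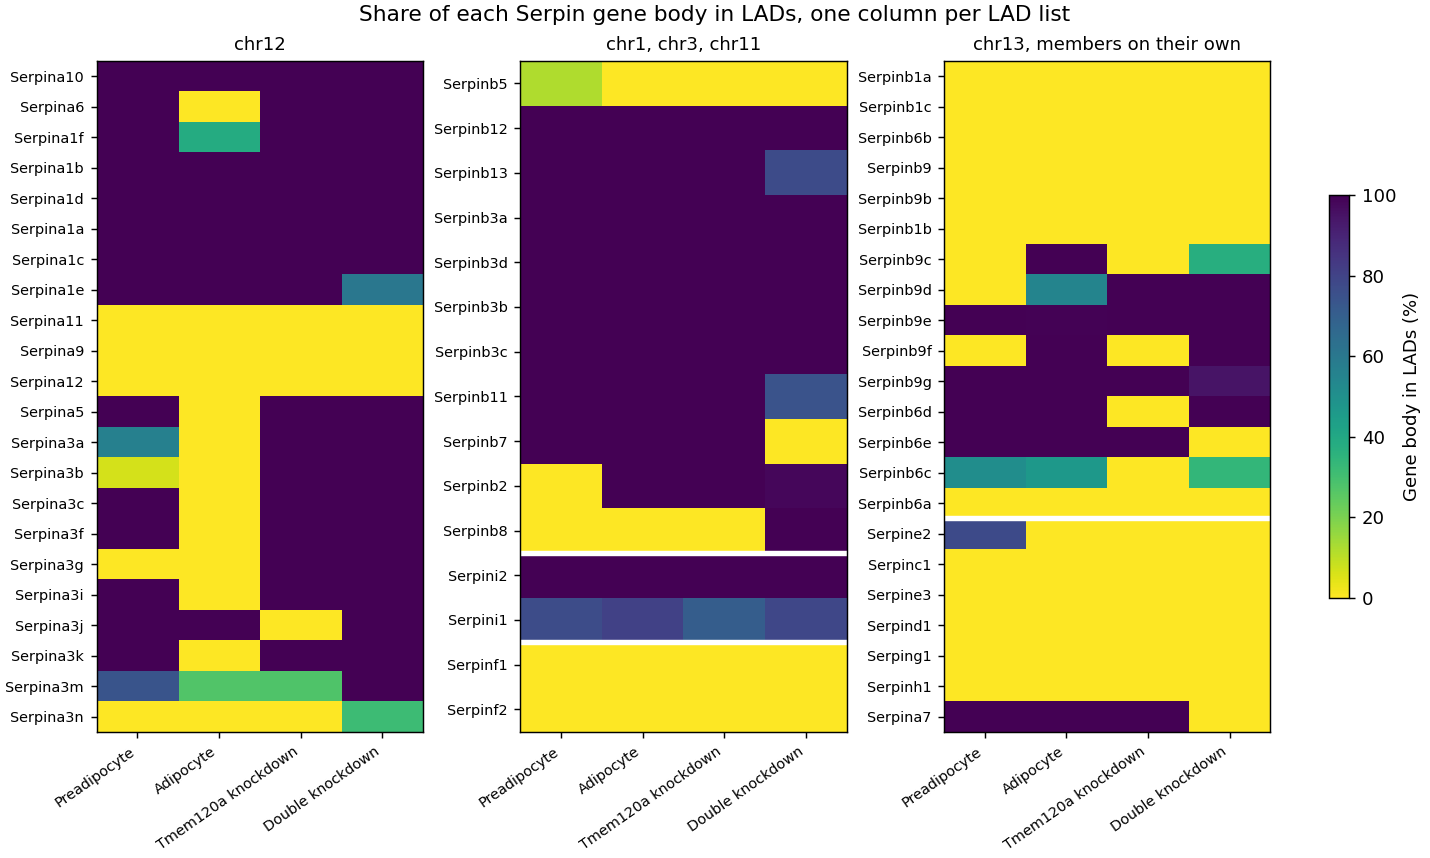
Percentage of each gene body that lies in LADs (colour, 0 to 100) for 59 of the 60 Serpin genes (rows, in genome order within each cluster, white lines between clusters) in the 4 lists (columns). The 8 chromosome 12 genes outside adipocyte LADs alone appear as yellow cells (0%) in the second column of the left panel, from Serpina6 to Serpina3k.

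The comparison of preadipocytes with adipocytes asks which genes leave or join the NE during adipogenesis. Of the members, 10 were in a LAD in preadipocytes and not in adipocytes, a state change made by 4.81% of all genes. They were the 8 chromosome 12 genes above, Serpine2 and Serpinb5. The opposite change was seen for 4 members (Serpinb2, Serpinb9c, Serpinb9d and Serpinb9f), all of clade B, beside 1.88% of all genes, and for 2 members once gaps under 50 kb between LADs were closed. In the deposited differential regions, 11 members met a released region (5.76% of all genes) and 3 met a recruited region (3.08% of all genes), or 5 when all pieces of the list subtraction were used. The released set held 9 of the 10 genes that left LADs, without Serpinb5, and added Serpina1f and Serpinb9e, of which parts only were released. The recruited set held Serpinb2, Serpinb9c and Serpinb9f, without Serpinb9d.

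The chromosome 12 cluster opened in the adipocyte list and was again mostly covered in both knockdown lists. LADs covered 74.8% of its 798 kb in preadipocytes, 47.3% in adipocytes, 81.4% after Tmem120a knockdown and 79.4% after the double knockdown. A total of 174 kb was in LADs in all lists but that of adipocytes, and 345 kb was in LADs in all 4 lists. Of its 22 genes, 17 were in a LAD in preadipocytes, 9 in adipocytes, 17 after Tmem120a knockdown and 19 after the double knockdown.

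The left part of this cluster encodes plasma proteins. Serpina10, which encodes protein Z-dependent protease inhibitor of the clotting cascade, lay wholly in a LAD in all 4 lists. Its neighbour Serpina6 encodes corticosteroid-binding globulin, the plasma carrier of glucocorticoids. Serpina6 (chr12:104884840-104895422) was 100% in LADs in preadipocytes, 0% in adipocytes, 100% after Tmem120a knockdown and 100% after the double knockdown. In adipocytes it was 13.0 kb from the nearest LAD, within a gap of 59.0 kb between the LADs over Serpina10 and over the Serpina1 genes. That gap is the released region whose ends are printed above, and all of it was in LADs in both knockdown lists. Serpina1f, at its right edge, had 38.5% of its body in an adipocyte LAD and 100% in each of the other lists.

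The genes of alpha-1 antitrypsin, the plasma inhibitor of neutrophil elastase, did not leave LADs. Serpina1b, Serpina1d, Serpina1a and Serpina1c were 100% in LADs in all 4 lists. Serpina1e was 100% in 3 lists and 60.5% in the double knockdown list, where the LAD ended in one of its introns. The copies Serpina1a to Serpina1e are near-identical, and 56.6 to 70.2% of the 31-base words in their bodies occur more than once in the genome, beside 16.8% in a sample of the whole genome. The 8 genes with the pattern of Serpina6 held between 0.133 and 29.7% of such words, with 0.133% for Serpina6 itself. The part of repeated sequence in these LAD calls was not tested.

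Serpina11, Serpina9 and Serpina12 lay together between the LADs. A stretch of 94.7 kb over these 3 genes was outside LADs in all 4 lists. Serpina12 (chr12:105266979-105282653) encodes vaspin, an adipokine that inhibits kallikrein 7. It was 38.4 kb from the nearest LAD in preadipocytes, 58.6 kb in adipocytes, 28.9 kb after Tmem120a knockdown and 33.3 kb after the double knockdown. Its nearest LAD was thus farthest in adipocytes. Serpina11 came within 1.57 kb of a LAD after Tmem120a knockdown without meeting it.

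To the right of Serpina12, no LAD lay over Serpina5 or the first Serpina3 genes in adipocytes. Serpina5 (chr12:105339323-105344347), which encodes protein C inhibitor, was 100% in LADs in preadipocytes, 0% in adipocytes and 100% in both knockdown lists, and was 131 kb from the nearest adipocyte LAD. The Serpina3 genes are the expanded mouse counterparts of alpha-1 antichymotrypsin, an acute-phase inhibitor of chymotrypsin-like proteases. Serpina3c and Serpina3f were wholly in LADs in preadipocytes and in both knockdown lists, and were 121 and 54.2 kb from a LAD in adipocytes. Serpina3a had 56.3% and Serpina3b 6.55% of the body in preadipocyte LADs, both had 0% in adipocytes, and both were wholly covered in each knockdown list. The call of Serpina3b in preadipocytes therefore rests on a short overlap at its 3′ end.

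Released regions over these genes measured 35.1 kb (Serpina5 and Serpina3a) and 83.0 kb (Serpina3b, Serpina3c and Serpina3f). Both were 100% in LADs after Tmem120a knockdown. The double knockdown list covered 87.1% of the first and 62.8% of the second. The uncovered part of the second was a stretch of 30.8 kb between Serpina3c and Serpina3f that holds no member.

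Farther right, single genes differed from their neighbours. Serpina3i and Serpina3k were 100% in LADs in preadipocytes, 0% in adipocytes and 100% in both knockdown lists, although only 5.94 and 9.73 kb separated them from adipocyte LADs. Serpina3g was outside LADs in preadipocytes (14.5 kb away) and in adipocytes (33.4 kb away), and was wholly within LADs of 234 kb after Tmem120a knockdown and 203 kb after the double knockdown. Serpina3j went the other way in one list, with 100% in LADs in preadipocytes, adipocytes and the double knockdown and 0% after Tmem120a knockdown, where it was 6.86 kb from a LAD. Serpina3m, cut by a border in 3 lists, had 73.9%, 27.3%, 27.5% and 100% of its body in LADs in the order preadipocytes, adipocytes, Tmem120a knockdown and double knockdown. Serpina3n, an acute-phase member made in several tissues, was outside LADs in the first 3 of these lists, 14.3 to 17.6 kb away, and had 31.3% of its body, start site included, in a LAD of the double knockdown. Of the 21 pairs of neighbouring members in the cluster, 11 had the same state in all 4 lists.

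**Figure D3:**
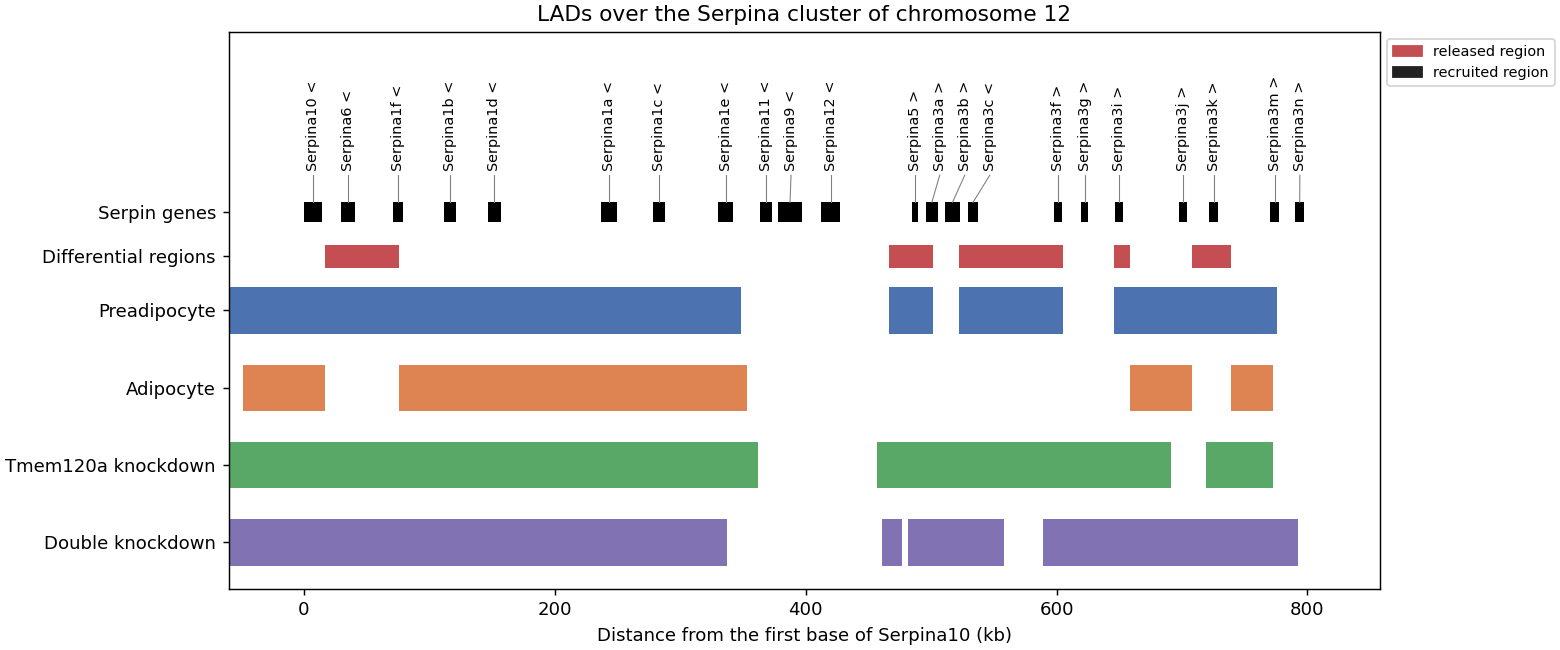
LADs (coloured bars, one row per list) over the 22 Serpin genes of chromosome 12 (black boxes, > and < give the strand) with the released regions that meet a member in red; the horizontal axis is the distance in kb from the first base of Serpina10. The adipocyte row lacks LADs over Serpina6, Serpina5, Serpina3c, Serpina3f and Serpina3i, which are covered in the other 3 rows, and the 94.7 kb over Serpina11, Serpina9 and Serpina12 are free of LADs in all rows. Only LADs that meet the cluster are drawn, so the flanks may hold others.

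The 200 bases before the start sites of 3 genes that left LADs and of Serpina12, which was never in one, are printed to show what these promoters look like. They are mm9, written 5′ to 3′ on the strand of the gene, and capitals mark any of 3 short words searched on both strands. These were TATAAA, the core of a TATA box, the Dam site GATC, and GTTAAT, which is a half-site of the liver factor HNF1. Matches were taken anywhere in the window, whatever their distance from the start site, so a TATAAA marked here need not be a TATA box. Serpina6 (chr12:104895423-104895622) and Serpina3c (chr12:105392081-105392280) are on the minus strand, as is Serpina12 (chr12:105282654-105282853). Serpina5 (chr12:105339123-105339322) is on the plus strand.
Serpina6: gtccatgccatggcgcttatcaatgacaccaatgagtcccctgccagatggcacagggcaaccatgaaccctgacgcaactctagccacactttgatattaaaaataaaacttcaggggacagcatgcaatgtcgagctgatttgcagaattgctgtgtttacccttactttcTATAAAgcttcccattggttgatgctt
Serpina5: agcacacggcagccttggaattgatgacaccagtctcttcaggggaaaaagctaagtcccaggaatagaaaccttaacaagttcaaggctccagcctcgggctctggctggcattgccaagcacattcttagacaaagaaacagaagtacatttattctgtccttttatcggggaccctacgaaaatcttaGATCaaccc
Serpina3c: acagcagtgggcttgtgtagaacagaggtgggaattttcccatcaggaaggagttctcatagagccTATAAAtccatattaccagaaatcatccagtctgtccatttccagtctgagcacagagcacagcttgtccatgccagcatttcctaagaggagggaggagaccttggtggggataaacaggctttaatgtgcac
Serpina12: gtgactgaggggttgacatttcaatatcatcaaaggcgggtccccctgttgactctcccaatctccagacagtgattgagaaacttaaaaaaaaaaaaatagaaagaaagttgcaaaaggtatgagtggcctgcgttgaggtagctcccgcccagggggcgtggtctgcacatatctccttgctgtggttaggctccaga
No pair of these 4 windows shared an identical run of more than 10 bases.

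Over all members, TATAAA occurred in the 200-base window of 16 of 60 genes (26.7%) and in 10.1% of all protein-coding genes. The HNF1 half-site occurred in 7 members (11.7%), among them Serpina1b, Serpina1c and Serpina1d, and in 4.38% of all genes. The Dam site occurred in 18 members (30.0%) and in 32.9% of all genes. None of the 3 words contains another. Upstream windows of duplicated genes share descent, so these counts are descriptions of the family. The windows of Serpinb3b and Serpinb3c overlap, so the same TATAAA and GATC matches are counted for both genes.

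In the chromosome 13 cluster 7 genes were never in a LAD, 6 differed between lists and 2 were always in one. LADs covered 53.9% of its 1161 kb in preadipocytes, 61.7% in adipocytes, 33.6% after Tmem120a knockdown and 41.5% after the double knockdown. When LADs under 100 kb were left out, the 4 values were 52.1%, 47.3%, 10.3% and 0%, so both the higher value in adipocytes than in preadipocytes and the order of the knockdown lists depend on short LADs. The direction from adipocytes to both knockdowns was opposite to that of the chromosome 12 cluster. The LADs were also cut into more pieces, with 4, 5, 6 and 9 LADs meeting the cluster in these lists.

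The first 276 kb, with Serpinb1a, Serpinb1c, Serpinb6b, Serpinb9, Serpinb9b and Serpinb1b, were outside LADs in all 4 lists. Serpinb1a encodes an inhibitor of neutrophil elastase and cathepsin G, and Serpinb9 an inhibitor of granzyme B. Serpinb9 was 144 kb from a LAD in preadipocytes, 100 kb in adipocytes, 156 kb after Tmem120a knockdown and 102 kb after the double knockdown. At the other end, Serpinb6a was free of LADs in every list, 24.9 to 58.8 kb away.

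Duplicated Serpinb9 copies lay where LADs began. Serpinb9c was 0% in LADs in preadipocytes, 100% in adipocytes, 0% after Tmem120a knockdown and 37.2% after the double knockdown. Its recruited region of 44.0 kb was 0% in LADs after Tmem120a knockdown and 75.0% after the double knockdown. Serpinb9f was 0% in LADs in preadipocytes, 100% in adipocytes, 0% after Tmem120a knockdown and 100% after the double knockdown. Its recruited region of 36.1 kb was 0% and 74.2% covered in the knockdown lists. For both genes the LAD of adipocytes was thus missing from the single and at least partly present in the double knockdown. Of the 31-base words of Serpinb9f, 68.0% occur more than once in the genome.

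Serpinb9d, outside preadipocyte LADs by 5.07 kb, had 54.7% of its body in an adipocyte LAD and 100% in both knockdown lists. Serpinb9e and Serpinb9g were in LADs in all 4 lists. A released region of 14.3 kb touched Serpinb9e over only 0.418% of its body, and the remaining 99.6% stayed in an adipocyte LAD.

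Toward the right, Serpinb6 copies were absent from LADs of one knockdown or the other. Serpinb6d was 100% in LADs in preadipocytes, adipocytes and the double knockdown and 0% after Tmem120a knockdown, 16.0 kb from a LAD. Serpinb6c, which spans a border, had 51.0%, 46.7%, 0% and 33.8% of its body in LADs in the order preadipocytes, adipocytes, Tmem120a knockdown and double knockdown. Serpinb6e was 100% in LADs in the first 3 and 0% in the double knockdown, 7.16 kb away. The same state in all 4 lists was seen for 5 of 14 neighbouring pairs in this cluster, all among the 6 genes at its left end.

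**Figure D4:**
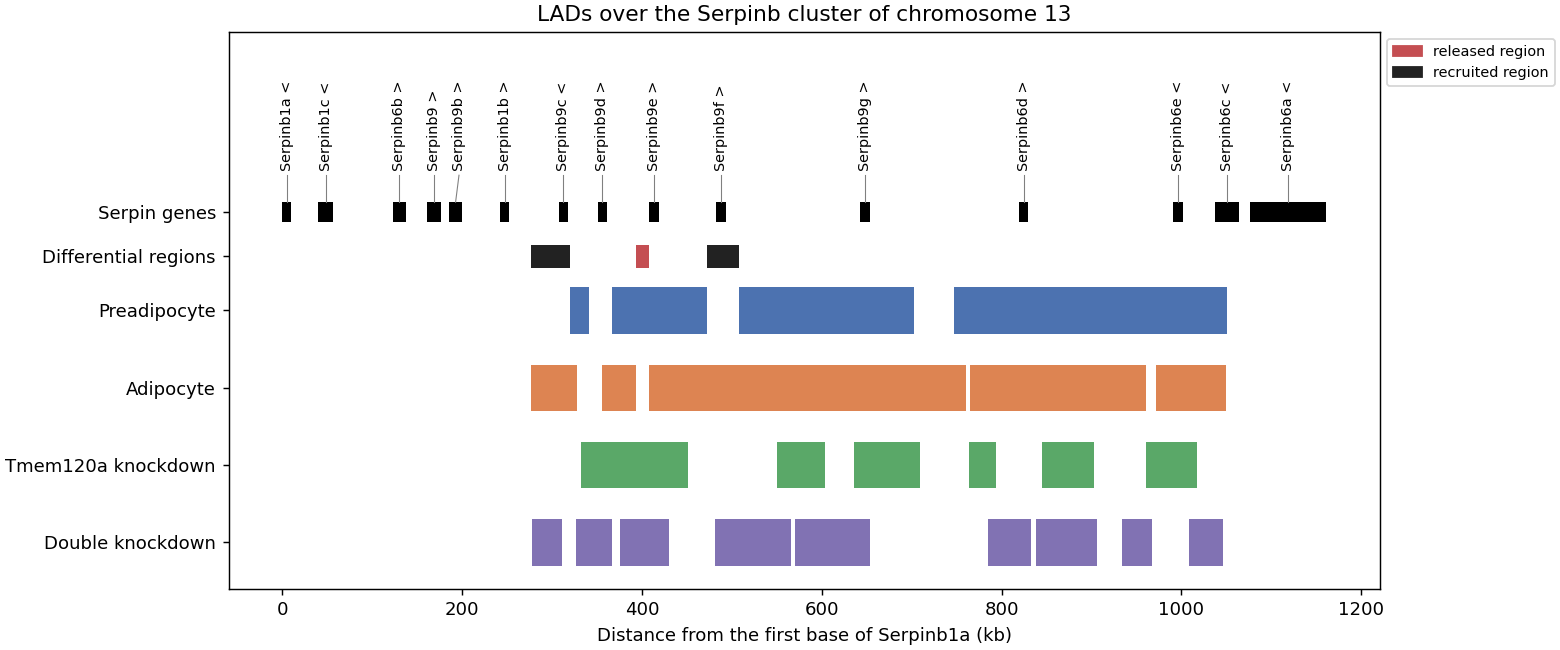
LADs over the 15 Serpin genes of chromosome 13, drawn as for chromosome 12, with released regions in red and recruited regions in black; the horizontal axis is the distance in kb from the first base of Serpinb1a. The first LAD of every row begins near Serpinb9c or Serpinb9d, the first 276 kb hold none, and the adipocyte row covers the most (61.7%) and the Tmem120a knockdown row the least (33.6%), an order that holds neither between the knockdowns nor between preadipocytes and adipocytes when LADs under 100 kb are left out.

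On chromosome 1 the clade B cluster was covered by 1 LAD in preadipocytes (599 kb) and 1 in adipocytes (677 kb), and by 7 separate LADs after the double knockdown. LADs covered 80.1% of its 748 kb in preadipocytes, 90.5% in adipocytes, 84.6% after Tmem120a knockdown and 68.2% after the double knockdown, or 44.1% there with LADs of at least 100 kb only. In the double knockdown list 13 LAD borders lay within the cluster, against 2 in preadipocytes, 2 in adipocytes and 4 after Tmem120a knockdown. Of its 11 genes, 9 were in a LAD in each list, though not the same 9 throughout.

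Serpinb12, Serpinb13, Serpinb3a, Serpinb3d, Serpinb3b, Serpinb3c and Serpinb11 were in LADs in all 4 lists. The Serpinb3 genes are the mouse relatives of the human squamous cell carcinoma antigens, which inhibit cathepsins and other proteases. The annotated Serpinb3b model is 124 kb long and overlaps Serpinb3c, so these 2 genes are not separate observations. In the double knockdown the LAD borders cut Serpinb13 (77.2% of the body in LADs) and Serpinb11 (74.6%), which were whole in the other lists. Serpinb7, expressed mainly in epidermis, was 100% in LADs in preadipocytes, adipocytes and after Tmem120a knockdown, and 0% in the double knockdown, 2.79 kb from a LAD.

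Serpinb2 encodes plasminogen activator inhibitor 2. It was 0% in LADs in preadipocytes, 31.9 kb away, and 100% in adipocytes, 100% after Tmem120a knockdown and 98.2% after the double knockdown. Its recruited region of 82.3 kb was 82.4% in LADs after Tmem120a knockdown and 36.1% after the double knockdown. The gene thus stayed in a LAD in both knockdown lists while less of the region around it did. The LAD that held it measured 677 kb in adipocytes, 58.0 kb after Tmem120a knockdown and 29.7 kb after the double knockdown.

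The outermost genes of the cluster met LADs in 1 list each. Serpinb5, which encodes the non-inhibitory maspin, had 12.1% of its body, but not its start site, in the preadipocyte LAD. In adipocytes the border lay 1.98 kb beyond the gene, after Tmem120a knockdown 31.6 kb and after the double knockdown 42.5 kb. Serpinb8 was 100% in a LAD of 239 kb in the double knockdown and was outside LADs elsewhere, by 0.120 kb in preadipocytes, 7.71 kb in adipocytes and 6.73 kb after Tmem120a knockdown. In those lists the nearest LAD lay to the right of Serpinb8, beyond the cluster, and was not the LAD over the other members. The gap at Serpinb8 in preadipocytes was shorter than the median distance of 228 bp between GATC sites here, so the call there turns on less than 1 typical fragment.

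**Figure D5:**
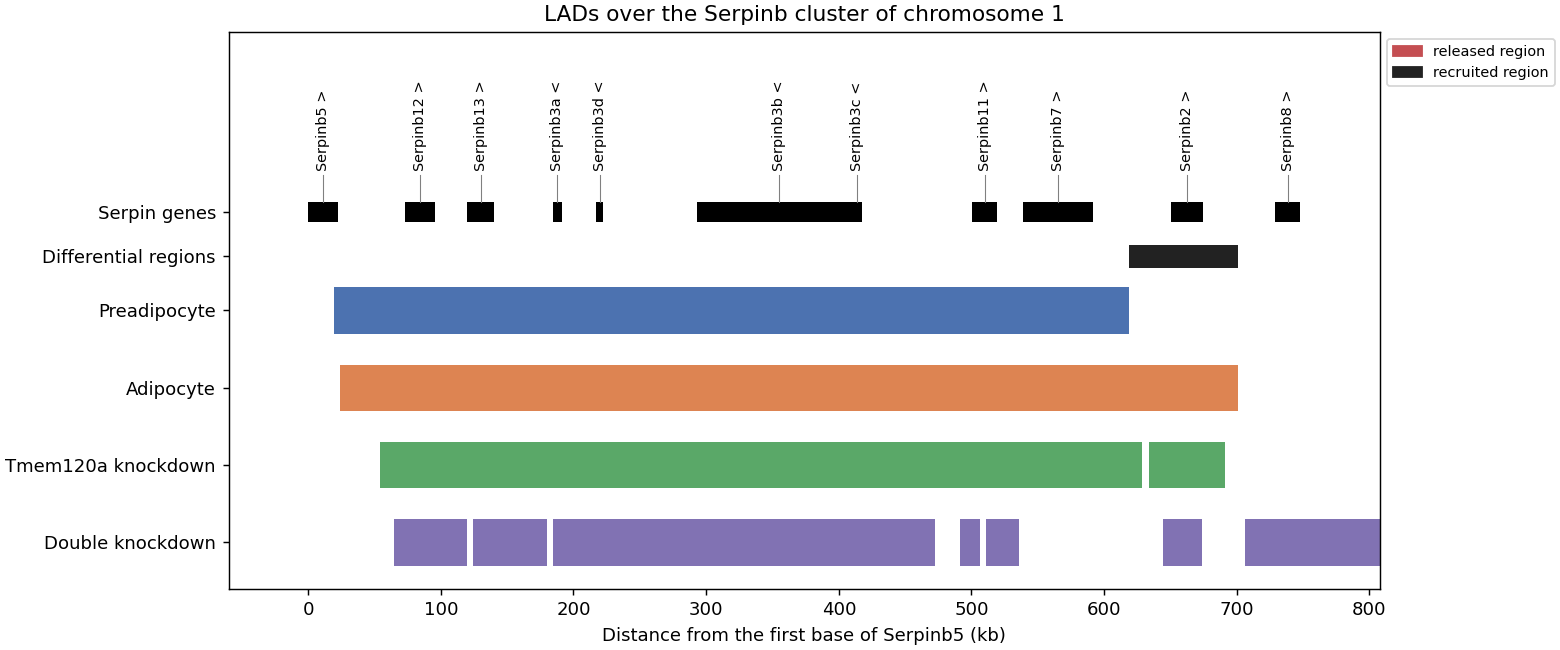
LADs over the 11 Serpin genes of chromosome 1, drawn as for chromosome 12, with the recruited region over Serpinb2 in black; the horizontal axis is the distance in kb from the first base of Serpinb5. Preadipocytes and adipocytes have 1 unbroken bar each, and the double knockdown row has 7 bars, none over Serpinb7 and the last over Serpinb8. In the other rows the bars drawn end before Serpinb8. Their nearest LADs, 0.120 to 7.71 kb to its right, do not meet the cluster and are not drawn.

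Serpine2 was the member outside the large clusters that left LADs in adipocytes. It encodes protease nexin 1, a secreted inhibitor of thrombin and plasminogen activators. Serpine2 (chr1:79790772-79855271, minus strand) had 77.7% of its body in a preadipocyte LAD of 50.1 kb and 0% in each of the other lists. The LAD lay inside the gene, with both borders in introns and the nearer one 0.889 kb from the start site, which itself was outside. The whole LAD was called released, and none of it was in a LAD in either knockdown list. The gene was 146 kb from a LAD in adipocytes, 112 kb after Tmem120a knockdown and 69.7 kb after the double knockdown. Serpine2 thus differed from the 8 genes of chromosome 12, which were in LADs again in both knockdown lists.

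Serpina7, on chromosome X, encodes thyroxine-binding globulin. It was 100% in LADs in preadipocytes, adipocytes and after Tmem120a knockdown, and 0% after the double knockdown, 4.54 kb away. The LADs that held it measured 67.4, 1991 and 32.4 kb. Serpini2 was wholly in LADs in all 4 lists, in LADs of 4596, 5591, 1889 and 297 kb in the order preadipocytes, adipocytes, Tmem120a knockdown and double knockdown. Serpini1, which encodes neuroserpin, an inhibitor of tissue plasminogen activator in neurons, had 76.6%, 80.8%, 70.6% and 78.7% of its body in LADs. Its start site was in a LAD only in the double knockdown list.

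Several members outside the large clusters lay away from LADs in all lists. Serpinf1 (pigment epithelium-derived factor) was 1048 kb from the nearest LAD in both preadipocytes and adipocytes, 500 kb after Tmem120a knockdown and 705 kb after the double knockdown, and its neighbour Serpinf2, the plasmin inhibitor alpha-2 antiplasmin, was 483 to 1070 kb away. Serpinh1, the collagen chaperone HSP47 of the endoplasmic reticulum, was 2167 kb away in preadipocytes, 3173 kb in adipocytes, 392 kb after Tmem120a knockdown and 383 kb after the double knockdown. Serping1, the C1 inhibitor of the complement cascade, was 183 to 351 kb away. None of these genes met a LAD in any list.

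Other members on their own were also outside LADs in every list. Serpinc1 encodes antithrombin, the main inhibitor of thrombin, and was 1772 kb from a LAD in preadipocytes, 524 kb in adipocytes, 68.1 kb after Tmem120a knockdown and 52.5 kb after the double knockdown. Serpind1, heparin cofactor II, was 490 to 505 kb from a LAD in 3 lists and 12.1 kb away after Tmem120a knockdown. Serpine3 was 218 to 2003 kb away. Members outside LADs had a median distance of 120 kb in preadipocytes, 121 kb in adipocytes, 68.1 kb after Tmem120a knockdown and 78.3 kb after the double knockdown. All genes outside LADs had medians of 387, 527, 252 and 223 kb, so the Serpin genes outside LADs were closer to one than the median gene in each list, and for both sets the medians were shorter in the knockdown lists.

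The knockdown lists are both compared with the same adipocyte list, so the 2 comparisons share that list. From adipocytes to Tmem120a knockdown, 9 members joined LADs, beside 6.13% of all genes, and 5 left them, beside 1.95%. Those that joined were the 8 chromosome 12 genes and Serpina3g, and those that left were Serpina3j, Serpinb9c, Serpinb9f, Serpinb6d and Serpinb6c. From adipocytes to the double knockdown, 11 joined, beside 8.36% of all genes, and 3 left, beside 2.10%. Those that joined were the same 9 with Serpinb8 and Serpina3n, and those that left were Serpinb7, Serpinb6e and Serpina7. By the start site alone 6 members left, beside 2.69% of all genes. With a window from 10 kb before to 15 kb after the start site, 1 left, and no share of all genes is given for it.

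Between the knockdowns themselves, 7 members were in a LAD in the double and not in the single knockdown (Serpinb8, Serpina3n, Serpina3j, Serpinb9c, Serpinb9f, Serpinb6d and Serpinb6c), beside 6.36% of all genes. The reverse held for 3 (Serpinb7, Serpinb6e and Serpina7), beside 4.28%. By the start site alone the reverse held for 5, beside 3.62% of all genes, and with the same window around it for 1. The balance of gains and losses depends on short LADs. With LADs of at least 100 kb only, 5 members were gained and 10 lost from the single to the double knockdown. From adipocytes to the double knockdown, 10 were gained and 10 lost under this limit. No share of all genes is given under it, so whether all genes shift in the same way is not known. By any overlap of the body with LADs of all lengths, 7 of the 10 members that differed between the knockdowns were clade B genes of chromosomes 1 and 13. Clade B holds 26 of the 60 members.

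Of the 10 members that were in a LAD in preadipocytes and not in adipocytes, 8 were in a LAD after Tmem120a knockdown and 8 after the double knockdown. Among the 1076 protein-coding genes with this change, 41.4% and 55.5% were. The 8 were the chromosome 12 genes in both cases, so they represent 1 cluster, and the remaining 2 were Serpine2 and Serpinb5. Of the 4 members that joined LADs in adipocytes, 2 were in a LAD after Tmem120a knockdown (Serpinb2 and Serpinb9d) and 4 after the double knockdown, beside 60.5% and 57.1% of the 420 genes with this change. Of the 25 members that LADs held in preadipocytes and again in adipocytes, 22 were in a LAD in each knockdown list, beside 94.4% and 93.9% of such genes.

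Members differed from other genes in base composition and length as well. The median GC content of their bodies was 43.3%, beside 45.6% for all protein-coding genes, and the median length was 11.1 kb beside 15.4 kb. Within the family, the 19 members always in a LAD had a median GC content of 39.3%, the 18 never in a LAD 44.8% and the 23 that differed between lists 44.2%. The 8 chromosome 12 genes absent from adipocyte LADs alone had a median of 47.2%. These values move with chromosome, since the median was 48.0% in the chromosome 12 cluster, 41.6% on chromosome 13 and 39.0% on chromosome 1. The part of base composition in the LAD calls was not tested.

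The proteases that serpins inhibit and other partners were looked up as the rest of the pathway. Of 28 protease genes, 3 were in a LAD in preadipocytes, 3 in adipocytes, 5 after Tmem120a knockdown and 6 after the double knockdown, and 21 were in no list, beside 63.7% of all genes. All protein-coding genes were in LADs at 26.2%, 23.3%, 27.5% and 29.5% in these lists. F9, a clotting factor, and Prss1, a trypsin, were wholly in LADs in all 4 lists. Ctsg, which encodes cathepsin G, was 0% in LADs in preadipocytes and 100% in the other 3 lists. Gzmb, which encodes the granzyme B that Serpinb9 inhibits, was 100% in preadipocytes and the double knockdown and 0% in adipocytes and after Tmem120a knockdown. Klk7, the target of vaspin, was 100% in a LAD after Tmem120a knockdown and 0% in the other lists. C1s had 27.0% and 25.2% of its body in LADs of the single and double knockdown and F11 had 14.0% in the double knockdown alone. Of 20 genes of other protease inhibitor families and serpin partners, 3, 4, 4 and 3 were in a LAD in the 4 lists and 16 in none, beside the same background. A2m (alpha-2-macroglobulin), Tfpi2 and Csta were in LADs in every list, with 6.52% of Csta covered in adipocytes, and Lrp2, a clearance receptor, had 16.1% of its body in LADs in adipocytes and 64.5% after Tmem120a knockdown.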

How the data were processed

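Per the study's methods, the authors aligned the reads to mm9, computed log2 of LaminB1-Dam over Dam per DpnI fragment and segmented it into LADs with DNAcopy 1.46.0. The submitters' processing notes also name BWA and limma, with no version. The deposited files used here hold positions alone, with no score: 4 lists of LADs (shortest LAD 15.0 kb) and 2 lists of differential regions. The rule for the latter is not given in full in the sources used here. Each list was matched to its condition by its abbreviation. Borders fell at GATC sites for 96.5 to 98.8% of list starts and ends in the mm9 sequence used here, and no interval ran past a chromosome end.

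Overlaps with annotated gene bodies were computed by base in Python 3.11.15 with numpy 2.4.6, after the interval code was tested on simulated data. Repeated 31-base words were counted over the genome. Members, gene lists and rules were chosen with earlier results of these data known. Every member whose state differed between lists or that met a differential region was named, with further known secreted members, the ends of clusters and genes at borders. The text also names other members, and the values of 1 member and the upstream sequence of another are not reported here. Alternatives were another overlap rule, LADs of at least 100 kb, gaps under 50 kb closed, pseudogenes included, all pieces of the list subtraction and other cluster distances. With 1 library pair per condition nothing could be tested.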

Additional observations from a re-analysis of the deposited data

How the results depend on the processing

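Under the alternatives, 12 values moved by more than 1.5 times from the reported value. Some others could not move, since the chromosome 11 pair was at 0% throughout and the other joining distances left the spans that remained unchanged. With LADs of at least 100 kb only, 22 members were in a LAD in the double knockdown, 10 left LADs from adipocytes to the double knockdown and 10 from the single to the double knockdown (where 5 joined, so that losses outnumbered gains), LADs covered 44.1% of the chromosome 1 cluster in the double knockdown, and of the chromosome 13 cluster 10.3% after Tmem120a knockdown and 0% after the double knockdown. This follows from dropping the shorter LADs, and LADs had a shorter median length in the knockdown lists. The counts of members under this limit have no share of all genes beside them. With gaps under 50 kb closed, 2 members joined LADs from preadipocytes to adipocytes. By the start site alone, 6 left LADs from adipocytes to the double knockdown and 5 from the single to the double knockdown; by a window from 10 kb before to 15 kb after the start site, 1 and 1 did. With all pieces of the subtraction of the lists, 5 members met a recruited region. The cause was not tested for these. With clusters joined below 200 kb the chromosome 3 pair separates and gives no value. No paired analysis was possible because each condition has 1 library of each kind and no test was made. Depth is unknown, so a border cannot be given an error.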

Other observations

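Annotated Serpin loci that are not protein-coding lay in the same clusters and were not among the 60 genes. On chromosome 12, Serpina3d-ps was 100% in LADs in preadipocytes, 0% in adipocytes, 100% after Tmem120a knockdown and 34.8% after the double knockdown, and Serpina3e-ps was 100%, 0%, 100% and 0% in the same order. Serpina4-ps1 had 64.3%, 0%, 100% and 100% of its body in LADs, and Serpina3h, annotated as a processed transcript, had 0%, 0%, 100% and 100%, as did its neighbour Serpina3g. Serpina3l-ps was wholly in LADs in all 4 lists. On chromosome 1, Serpinb10-ps had 0%, 100%, 100% and 29.8%, beside the 0%, 100%, 100% and 98.2% of Serpinb2, which it overlaps, so the 2 loci are not separate observations.

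Other genes within and beside the clusters were read in the same way. Gm46, between Serpina6 and Serpina1f, was in LADs in all lists but that of adipocytes, as Serpina6 was. Gsc, which encodes the developmental regulator goosecoid and lies to the right of Serpina3n, was in a LAD in the preadipocyte and double knockdown lists. On chromosome 13, Nqo2 and Ripk1, near Serpinb6a, were in no LAD in any list. Pdcd10, between Serpini2 and Serpini1, was in a LAD in the double knockdown alone.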
